A study of Homo sapiens with 3 samples.

Results

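The myosin heavy chain genes examined here were 8 muscle genes (MYH13, MYH8, MYH4, MYH1, MYH2, MYH3, MYH6 and MYH7) and 2 nonmuscle genes (MYH9 and MYH10). They were followed through a list of 377858 genomic intervals that served as targets for capturing intron ends, and 649 of those intervals belonged to the 10 genes. A target was counted as theirs when it lay wholly inside 1 of 4 windows of the genome build hg19. The cluster of skeletal muscle genes on chromosome 17 (from 10.20 to 10.56 Mb) held 368 targets, and the cardiac pair MYH6 and MYH7 on chromosome 14 (from 23.851 to 23.905 Mb) held 130. The window of MYH9 on chromosome 22 (from 36.677 to 36.785 Mb) held 75 targets, and that of MYH10 on chromosome 17 (from 8.377 to 8.535 Mb) held 76. This gave 498 muscle and 151 nonmuscle targets.

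The study prepared 3 stranded RNA libraries from K562, a human erythromyeloblastoid leukaemia cell line, and captured intron ends to locate branchpoints. The libraries are biological replicates of the line in 1 group, so no comparison between groups of samples exists. Each began with ribosome-depleted RNA from 5 µg of total RNA, with ERCC spike-in RNA at 1% in replicates 1 and 2 and at 1.08% in replicate 3. The interval list is a single design common to all 3 libraries, and per the labels' protocols it aimed at the 100 nt at either end of annotated introns, outside exons and outside stretches highly transcribed in K562.

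Each target carries a deposited score, a whole number between 0 and 125 in the whole list. The sources used here do not say what the score measures, so it was treated as a score, without fold changes, and the reads and depth of the 3 libraries were not analysed here. Every count and share below is a census of a fixed list. No replicate error exists for it, no p-value was computed, and an SD is the spread between targets of a gene, which are not replicates. Every interval is listed with a plus sign, so the list does not say which strand a score came from.

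Myosin heavy chains are motor proteins whose head domain binds actin and hydrolyses ATP, and whose long coiled-coil tail pairs 2 chains and packs them into filaments. The skeletal muscle genes form a cluster and are used at different stages and in different fibre types. MYH3 encodes the embryonic chain, MYH8 the perinatal chain, MYH2 the IIa, MYH1 the IIx and MYH4 the IIb chain of fast fibres, and MYH13 the extraocular chain. MYH6 encodes the alpha cardiac chain and MYH7 the beta cardiac chain, which slow skeletal fibres also use. MYH9 and MYH10 encode the heavy chains of nonmuscle myosin IIA and IIB, which act in cell division, adhesion and movement in many cell types, blood cells included for MYH9.

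Targets stop at exon borders, so neighbouring targets face each other either across an exon or across the inside of an intron. A gap of the first kind is an imprint of the exon. A short coding exon present in every one of the 10 genes is printed here because it shows this across the whole family. It is 28 nt long in all 10 genes in GENCODE release 29 and encodes residues just ahead of the phosphate-binding loop of the motor domain. The sequences are those of the GENCODE release 29 transcripts (GRCh38), written 5′ to 3′ on the coding strand. Capitals mark the 14 positions that are identical in all 10 genes.
MYH13: AtcGaGAcaAcCAgTCtATccTcatcAC
MYH8: AtcGaGAgaAtCAgTCcATccTgatcAC
MYH4: AtcGtGAaaAcCAgTCaATctTgattAC
MYH1: AtcGgGAgaAtCAgTCtATctTgatcAC
MYH2: AccGaGAgaAtCAgTCaATccTgatcAC
MYH3: AtcGtGAaaAcCAgTCcATtcTgatcAC
MYH6: AtcGgGAgaAcCAgTCcATccTcatcAC
MYH7: AcaGaGAaaAcCAgTCcATccTgatcAC
MYH9: AccGaGAagAtCAaTCcATctTgtgcAC
MYH10: AtcGtGAggAcCAgTCaATtcTttgcAC

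All 10 sequences of this exon were distinct. Among the 28 pairs of muscle genes, 21 to 26 of the 28 bases were identical, with a median of 23. MYH9 and MYH10 shared 19 bases, and the 16 pairs of a muscle with a nonmuscle gene shared 18 to 22. In the target list the exon appeared as a gap of 28 or 29 nt in every gene. It was exon 4 in MYH9 and MYH10, exon 5 in MYH6 and exon 6 in the other 7 muscle genes. The gap lay at chr17:10418184-10418212 in MYH1, where the target of the preceding intron scored 1 and that of the following intron 3, and at chr17:10318998-10319025 in MYH8, where both sides scored 2. Both sides scored 0 in the other 6 muscle genes, for example at chr14:23901687-23901715 in MYH7. The gap lay at chr22:36723505-36723533 in MYH9, with scores of 27 on the side of the preceding intron and 6 on the side of the following intron. In MYH10 it lay at chr17:8492398-8492426, with scores of 2 and 1. These coordinates are hg19 and come from the list, and all 10 genes are on the minus strand in GENCODE release 29.

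Scores separated the muscle from the nonmuscle genes. Of the 498 muscle targets, 92 (18.5%) scored above 0, against 144 of the 151 nonmuscle targets (95.4%). In the whole list 52.8% of targets scored above 0, so the muscle share lay below the background and the nonmuscle share above it. The mean score was 0.311 ± 0.861 over muscle targets and 18.3 ± 19.8 over nonmuscle targets (SD between targets, n = 498 and 151), a difference of -17.99 (muscle minus nonmuscle). The whole list had a mean of 6.80 and a median of 1. The median was 0 in muscle genes and 11 in nonmuscle genes. The design left out stretches highly transcribed in K562, so intron ends left out on that ground have no score here.

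All muscle targets scored within the range of the nonmuscle targets, at its low end. Among muscle targets 406 scored 0, 58 scored 1, 33 scored 2 to 5, and a single one scored higher, at 10. Among nonmuscle targets 7 scored 0, 6 scored 1, 26 scored 2 to 5, 33 scored 6 to 10, 33 scored 11 to 20, 34 scored 21 to 50 and 12 scored above 50. A score above the list median of 1 was reached by 34 muscle targets (6.83%) and 138 nonmuscle targets (91.4%), against 44% of the whole list.

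**Figure D1:**
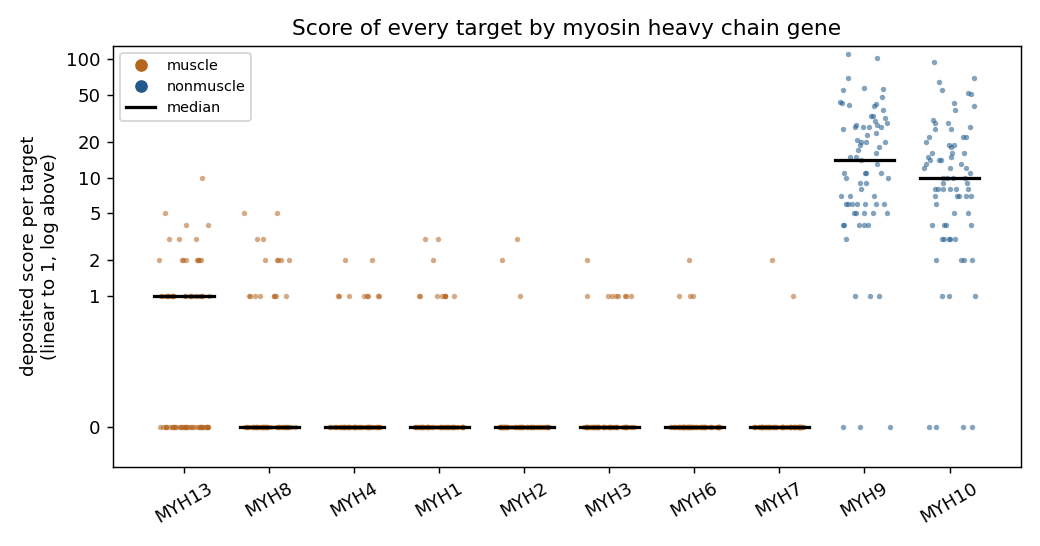
Deposited score of each of the 649 targets (vertical axis, linear to 1 and logarithmic above) by gene, with the 8 muscle genes on the left and the 2 nonmuscle genes on the right. Points are single targets and black bars are medians, which are 14 for MYH9 and 10 for MYH10, 1 for MYH13 and 0 for the other 7 muscle genes.

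Within the skeletal cluster the genes differed from one another, although all of them stood far below MYH9 and MYH10. Of the developmental genes, MYH3 (embryonic) had 9 of 60 targets above 0 (15%), with a mean of 0.167 ± 0.418 and a maximum of 2. MYH8 (perinatal) had 17 of 59 above 0 (28.8%), with a mean of 0.576 ± 1.15 and a maximum of 5. The genes of adult fast fibres all lay below MYH8. MYH2 (IIa) had 3 of 57 targets above 0 (5.26%), MYH1 (IIx) 11 of 60 (18.3%) and MYH4 (IIb) 10 of 61 (16.4%), and their maxima were 3, 3 and 2.

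MYH13, the extraocular gene, had the highest share in the cluster. It had 36 of 71 targets above 0 (50.7%), with a mean of 0.972 ± 1.56, a median of 1 and a maximum of 10. That share lay near the 52.8% of the whole list and below the 62.9% of chromosome 17, and only 15 of its 71 targets exceeded the list median of 1. The highest muscle target was in MYH13 at chr17:10223814-10223913, the 3′ end of an intron, with a score of 10. The muscle targets that scored 4 or more were 6 in number, 4 in MYH13 and 2 in MYH8.

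The cardiac genes stood at the bottom together with MYH2. MYH6 (alpha) had 4 of 65 targets above 0 (6.15%) and MYH7 (beta) 2 of 65 (3.08%), with means of 0.0769 and 0.0462 and a maximum of 2 in each. Chromosome 14 as a whole had 51.6% of targets above 0. Ordered by share, the muscle genes ran from MYH13 through MYH8, MYH1, MYH4, MYH3, MYH6 and MYH2 to MYH7. With no replicate values, whether neighbours in that order differ was not tested.

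Muscle targets above 0 were partly contiguous. In MYH13 a run of 12 neighbouring targets from 10243366 to 10254088 on chromosome 17 all scored 1 to 4. In MYH8 a run of 8 from 10309495 to 10313005 scored 1 to 5, and in MYH1 a run of 6 from 10417442 to 10419755 scored 1 to 3. The longest run was 3 targets in MYH4, 2 in MYH3 and MYH6, and 1 in MYH2 and MYH7. In GENCODE release 29 antisense genes overlap the whole of MYH8, MYH4, MYH1 and MYH2 and part of MYH13. An antisense gene also overlaps 348 nt of MYH7, and none overlaps MYH3 or MYH6. Since the list carries no strand, scores from a myosin gene and from an antisense gene cannot be told apart.

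The nonmuscle genes scored along nearly their whole length. MYH9 had 72 of 75 targets above 0 (96%), against 62.2% on chromosome 22, with a mean of 20.7 ± 21.5, a median of 14 (quartiles 6 and 28) and a maximum of 112. MYH10 had 72 of 76 above 0 (94.7%), against 62.9% on chromosome 17, with a mean of 15.9 ± 17.8, a median of 10 (quartiles 4 and 19.25) and a maximum of 95. Whether MYH9 and MYH10 differ was not tested, as no replicate values exist. The longest run of targets above 0 was 35 in MYH9 and 30 in MYH10, and in each gene it took in the 3′ end of the gene.

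The neighbourhoods of the windows did not all share the scores inside them. Below the skeletal cluster, the nearest 50 targets all scored 0, and above it 28% of the nearest 50 scored above 0. Within the cardiac pair 4.62% of targets scored above 0, against 60% of the 50 below it and 52% of the 50 above it. Beside MYH9 the shares were 64% below and 74% above, and beside MYH10 they were 52% below and 4% above. The outermost MYH10 target on the high side scored 3, and the nearest one outside, 99555 nt away, scored 0. The outermost MYH9 target on the low side scored 4, and the nearest one outside, 17635 nt away, scored 31.

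Both nonmuscle genes scored higher toward their 3′ ends. Spearman's rank correlation between score and order along the gene, 5′ to 3′, was 0.295 in MYH9 (n = 75 targets) and 0.337 in MYH10 (n = 76), given as a description because neighbouring targets share a gene. In MYH9 the median was 11 over the 25 targets nearest the 5′ end, 9 over the middle 25 and 21 over the 25 nearest the 3′ end. In MYH10 it was 8 over the 25 nearest the 5′ end, 9 over the middle 25 and 15 over the 26 nearest the 3′ end. The NDEL1 gene overlaps the 3′ end of MYH10 in GENCODE release 29, and its part in those scores was not tested.

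The highest target of each nonmuscle gene lay in the part of the gene that encodes the coiled-coil tail. In MYH9 the 3′ end of the intron before exon 32, at chr22:36685344-36685443, scored 112. It was followed by the 2 ends of intron 28, which spanned 227 nt in the list: the 5′ end at chr22:36690037-36690136 scored 103 and the 3′ end at chr22:36689910-36690009 scored 69. In MYH10 the same 3′ end, that of the intron before exon 29, was the highest target of the gene, at chr17:8398560-8398659 with a score of 95. The 5′ end of that intron in MYH10 scored 4, so the high value was at both ends of the intron in MYH9 and at its 3′ end alone in MYH10.

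Targets at 3′ ends of introns scored higher than those at 5′ ends in the nonmuscle genes. For each exon whose gap was exactly 1 nt longer than the exon, the target in the intron before it (a 3′ end) was set against the target in the intron after it (a 5′ end). In MYH9 the 3′ end was higher at 22 of 29 exons (75.9%), with medians of 21 at 3′ ends and 7 at 5′ ends. In MYH10 the 3′ end was higher at 18 of 30 exons (60%), with medians of 13.5 and 8. Over both genes this was 40 of 59 exons (67.8%), with no ties, medians of 18 at 3′ ends and 8 at 5′ ends, and a mean difference of 7.08 ± 28.9 (3′ minus 5′, SD between exons). The SD exceeded the mean. Single exons differed widely in the other direction too, as at exon 28 of MYH9 (20 at the 3′ end and 103 at the 5′ end) and exon 6 of MYH10 (8 and 70).

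As a background, the target above the gap was the higher one at 46.4% of the gaps of 30 to 400 nt in the whole list with a score above 0 on either side, or 28.9% with all such gaps counted. On a minus-strand gene that target is the 3′ end, but the list mixes strands, so the background does not separate 3′ from 5′ ends. Muscle genes gave little to compare: of 221 exons the 3′ end was higher at 31, the 5′ end at 20, and 170 were tied. Within introns that had 1 target at each end, the 3′ end was higher in 28 of 42 nonmuscle introns, 14 of 21 in each gene.

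**Figure D2:**
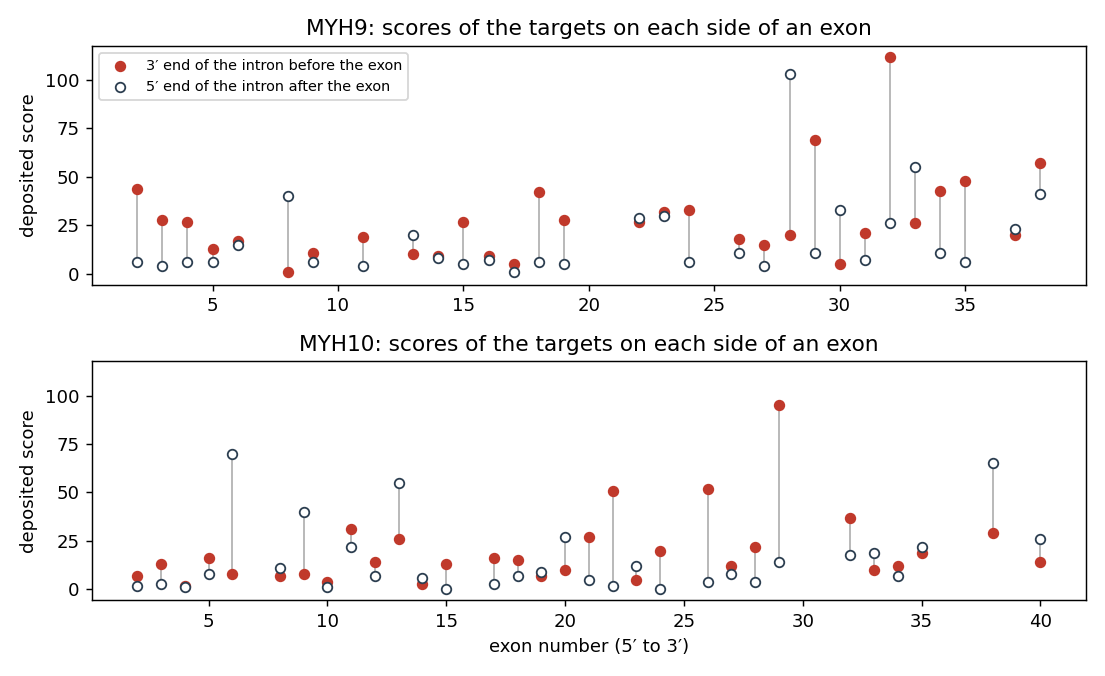
Deposited scores (vertical axis) of the targets on the 2 sides of each matched exon of MYH9 (top) and MYH10 (bottom), by exon number 5′ to 3′, with filled points for the 3′ end of the preceding intron and open points for the 5′ end of the following intron. All 61 nonmuscle exons matched within 2 nt are drawn, and the filled point is the higher of the pair at 42 of them.

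The scores of MYH9 and MYH10 were weakly alike exon by exon. Both genes had a matched gap at 26 exons of the same number, and 24 of these were equal in length. Across those 26 exons, Spearman's rank correlation between the genes was 0.255 for 3′ ends and 0.331 for 5′ ends, a description of 26 points that share their gene pair and direction of transcription. The 3′ end was the higher one in both genes at 14 of the 26.

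Only 7 nonmuscle targets scored 0, and 3 of the 4 in MYH10 were neighbours. This run, singled out after its values were seen, began with the 5′ end of the intron after exon 15 at chr17:8438604-8438703. It went on with the 2 targets that flank a gap of 64 nt at chr17:8433940-8434003. The 63 nt coding exon 17 of transcript MYH10-202 has this length less 1 nt and the same place in the order of exons. It is the alternative exon that adds residues to the actin-binding part of the motor domain and is known from neurons, and it is printed because it is the 1 exon of the gene with a score of 0 on both sides.
MYH10 63 nt exon: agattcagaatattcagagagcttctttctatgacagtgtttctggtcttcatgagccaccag

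The next target toward the 3′ end, before exon 17 of the main transcript, was 92 nt wide and scored 16, and the target before exon 15 scored 13. The other alternative internal exons annotated in protein-coding transcripts of MYH10, of 30 nt in MYH10-202, 27 nt in MYH10-203 and 74 nt in MYH10-204, had no gap of their length plus 1 nt. The 3 MYH9 targets at 0 did not form a run.

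Gaps between targets traced the exon structure of the family. Neighbouring targets were at most 1000 nt apart at 431 of 490 muscle gaps (88.0%) and 104 of 149 nonmuscle gaps (69.8%), against 58.6% in the whole list. The median of these short gaps was 147 nt in muscle genes, 165 nt in nonmuscle genes and 148 nt in the list. Gaps of 30 to 400 nt that left 1 after division by 3 made up 41.2% of 357 in muscle genes and 53.2% of 79 in nonmuscle genes, against 38.0% in the list. These medians and shares pool gaps across exons with short gaps inside introns.

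Gaps were then matched in order to the internal exons of 1 protein-coding transcript per gene. A gap was 1 nt longer than its exon at 221 of 304 muscle exons and 59 of 78 nonmuscle exons. At a further 75 muscle exons and 2 nonmuscle exons the gap equalled the exon. The target below the gap was 100 nt wide at 230 of the 280 gaps of the first kind and at 1 of the 77 gaps of the second kind. Taking both kinds as matched, 296 muscle exons (97.4%) and 61 nonmuscle exons (78.2%) had a matched gap, and the counts that follow take both.

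Complete ladders were found in 3 muscle genes. MYH8, MYH4 and MYH1 had all 38 internal exons matched, and MYH13 and MYH3 had 38 of 39. MYH13 lacked exon 26, MYH3 lacked exon 2, MYH6 lacked exon 13, MYH7 lacked exons 35 and 36, and MYH2 lacked exons 2, 15 and 19. MYH9 had 30 of 39 and MYH10 31 of 39. Exons 7, 25, 36 and 39, with lengths of 64, 172, 89 and 109 nt, were unmatched in both nonmuscle genes. The others unmatched were exons 10, 12, 20, 21 and 40 in MYH9 and exons 16, 30, 31 and 37 in MYH10. No running number of the list was missing in any of the 4 windows, while 4753 of 382611 (1.24%) were missing in the whole list. Unbroken numbers do not show that every intron end has a target. Whether leaving out stretches highly transcribed in K562 removed targets beside the unmatched exons was not tested. In MYH9 only 1 target lay between the 5′ end after exon 6 and the 3′ end before exon 8.

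**Figure D3:**
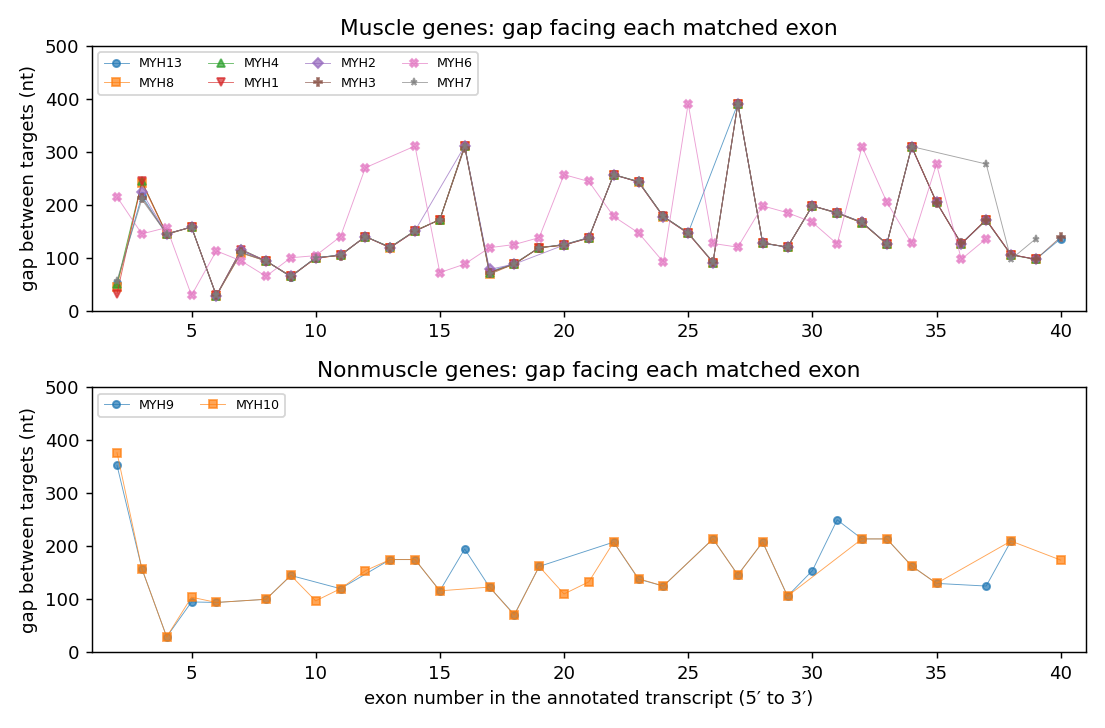
Length in nt of the gap facing each matched exon (vertical axis) by exon number, 5′ to 3′, for the 8 muscle genes (top) and the 2 nonmuscle genes (bottom). The curves of the skeletal genes lie on each other over most of the gene. Their shared peaks are at exon 16 (311 nt, or 308 nt in MYH3), exon 27 (391 nt) and exon 34 (309 or 310 nt). MYH6 has these peaks at lower exon numbers, and the nonmuscle curves follow a ladder of their own.

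Within this set, the 8 muscle genes shared 1 ladder and the 2 nonmuscle genes another. The split need not hold outside the 10 genes. By order of lengths alone, exons of MYH11, the smooth muscle gene, matched 28 gaps in MYH9 and 31 in MYH10. They matched 11 to 13 gaps in each of the 8 muscle genes. The longest common subsequence of the annotated lengths of matched exons held 28 to 36 exons over the 28 pairs of muscle genes, with a median of 31.5. MYH4 and MYH1 had the most in common, 36 of 38 exons. MYH9 and MYH10 had 24 in common, which is 80% of the 30 matched in MYH9 and 77.4% of the 31 in MYH10. The 16 pairs of a muscle with a nonmuscle gene had 5 to 7. Counted on the gap lengths of the list, where a gap can equal the exon or exceed it by 1 nt, the common subsequence was shorter in muscle pairs, at 15 to 27 with a median of 21. It was 23 for MYH9 and MYH10 and 4 to 7 for the mixed pairs. In the annotation, MYH9 and MYH10 differ in the length of only 2 internal exons, exon 2 (352 nt in MYH9 and 376 nt in MYH10) and exon 5 (94 and 103 nt).

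Certain gap lengths recurred across the family. Gaps of 94 and 120 nt, which the whole list holds 1283 and 1085 times, occurred in all 10 genes. Gaps of 97 and 158 nt, found 1471 and 769 times in the list, occurred in 9. Gaps of 119, 126, 140 and 198 nt occurred in all 8 muscle genes and in neither nonmuscle gene, and the list holds them 1159, 1071, 939 and 479 times. A gap of 391 nt, found 114 times in the whole list, occurred in every muscle gene other than MYH7. MYH7 has the same exon of 390 nt, but its gap there equalled the exon. Gaps of 100 and 145 nt occurred in both nonmuscle genes and in 6 muscle genes each, and the list holds them 1356 and 1117 times.

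The genes differed in how compactly the targets lay. MYH7 was the most compact, with 65 targets over 22.7 kb (2.86 per kb), and MYH6 had 65 over 26.2 kb. MYH4, MYH1, MYH2, MYH3 and MYH8 spanned 25.95 to 31.3 kb with 1.88 to 2.35 targets per kb. MYH13 was the exception among muscle genes, with 71 targets over 74.8 kb (0.949 per kb). MYH9 spanned 106.05 kb (0.707 per kb) and MYH10 spanned 154.7 kb (0.491 per kb). The transcripts used had 38 to 41 exons in all 10 genes.

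Intron spans were read between the outer edges of the targets of consecutive matched exons. Over 283 muscle introns the median span was 300 nt, and over 47 nonmuscle introns it was 1404 nt. The 47 were 23 introns of MYH9 and 24 of MYH10, from transcripts of 41 exons each. First and last introns and those beside unmatched exons are left out, which removes a larger part of the nonmuscle introns than of the muscle introns. By gene the median was 132 nt in MYH2, 183 nt in MYH8, 214 nt in MYH1, 279 nt in MYH4, 283 nt in MYH6, 295 nt in MYH7, 300 nt in MYH3 and 1381 nt in MYH13. It was 826 nt in MYH9 and 2622 nt in MYH10, so MYH13 lay between the nonmuscle genes. The longest matched intron was intron 2 of MYH10 (17918 nt), followed by intron 3 of MYH10 (15716 nt) and intron 3 of MYH9 (13880 nt). The longest in a muscle gene was intron 18 of MYH13 (6957 nt).

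**Figure D4:**
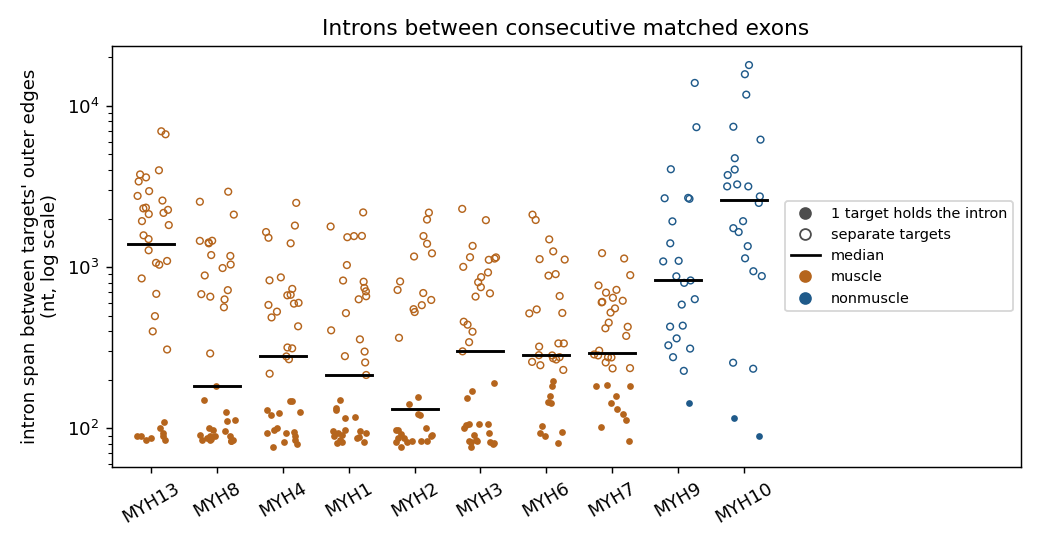
Span in nt (logarithmic vertical axis) of each intron between consecutive matched exons, by gene, with filled points for introns held by 1 target and open points for introns with separate targets. Black bars are medians, from 132 nt in MYH2 to 1381 nt in MYH13 among muscle genes, with 826 nt in MYH9 and 2622 nt in MYH10.

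Short introns were held by a single target from exon to exon. This was so for 118 of 283 muscle introns (41.7%) and 3 of 47 nonmuscle introns (6.38%). The share was highest in MYH2, with 18 introns (56.2%), and MYH8, with 19 (51.4%), and lowest among muscle genes in MYH13, with 9 (25%). Introns 13, 20, 29 and 38 were held by 1 target in 5 of the 6 cluster genes. The exception was MYH13 for introns 13, 20 and 29, and MYH8 for intron 38. The nonmuscle introns of this kind were intron 32 of MYH9 (144 nt, score 26) and introns 18 and 20 of MYH10 (89 nt, score 7, and 115 nt, score 27). Of the 121 such introns in all, the 72 annotated at 100 nt or less had a target exactly as wide as the annotated intron, and the 49 longer ones had a target 1 nt narrower.

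Target widths also differed between the classes. Muscle targets were exactly 100 nt wide in 367 of 498 cases (73.7%) and nonmuscle targets in 135 of 151 (89.4%), against 87.7% of the whole list. Widths of 70 to 95 nt made up 65 muscle targets (13.1%) and 7 nonmuscle targets (4.64%), against 3.08% of the list. Widths over 101 nt made up 48 muscle targets (9.64%) and 2 nonmuscle targets (1.32%), against 3.37% of the list. Pooled, the muscle genes had a larger share than the list in both off-size classes, and the nonmuscle genes in the narrow class alone. Not every gene followed its class. At 70 to 95 nt, MYH7 (1.54%) and MYH9 (1.33%) lay below the list, and MYH10 held 6 of the 7 nonmuscle targets. Over 101 nt, MYH13 (2.82%) lay below the list.

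The genes reached these shares differently. MYH2 had the lowest share of full-width targets (61.4%) and the most of 70 to 95 nt (12 targets). MYH7 had the most targets over 101 nt (11) and a single one of 70 to 95 nt. MYH13 and MYH6 had 83.1% at full width, MYH9 92% and MYH10 86.8%. The widest targets were 199 nt in MYH4 at chr17:10372654-10372852, 197 nt in MYH6, 192 nt in MYH3 and 186 nt in MYH7, all with a score of 0, against 144 nt in MYH9 and 115 nt in MYH10. The narrowest were a single base in MYH10 (score 1), 4 nt in MYH7 (score 0), 9 nt in MYH9 (score 3) and 11 nt in MYH2 (score 0).

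**Figure D5:**
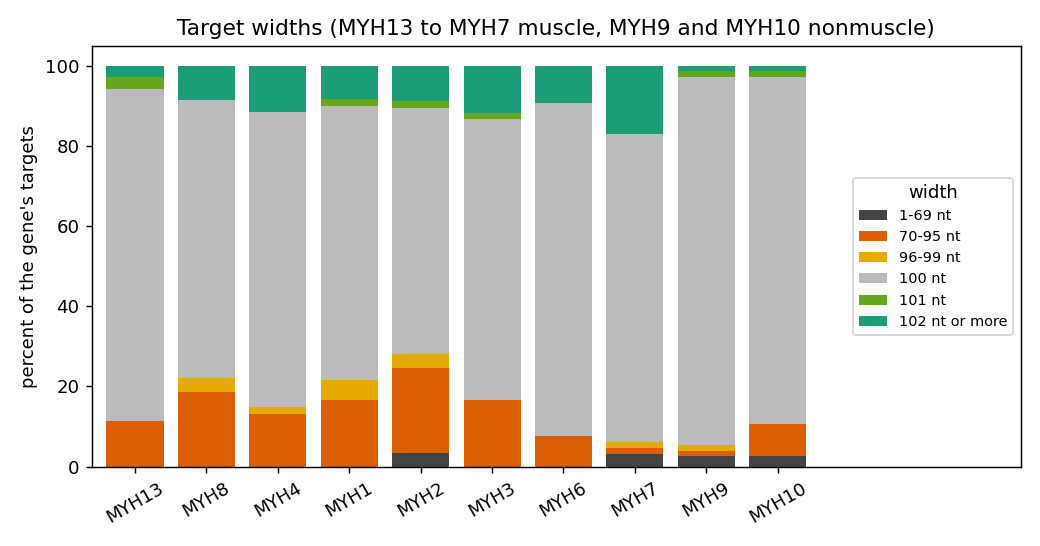
Percent of each gene's targets (vertical axis, stacked to 100) in 6 width classes, with muscle genes on the left and nonmuscle genes on the right. The full-width share is lowest in MYH2 at 61.4% and highest in MYH9 at 92%, and the class of 102 nt or more is largest in MYH7.

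The score difference between muscle and nonmuscle genes was present at each of the widths compared here, and the remaining widths were not compared. At full width, 18.5% of 367 muscle targets and 95.6% of 135 nonmuscle targets scored above 0. At 70 to 95 nt the shares were 20% of 65 muscle targets and all 7 nonmuscle targets, and over 101 nt they were 14.6% of 48 muscle targets and both nonmuscle targets.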

How the data were processed

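Per the labels' protocols, the authors took both 100 nt ends of GENCODE release 12 introns, and left out exons and stretches highly transcribed in K562. The deposited list gives hg19 positions, a running number and a score per interval. The deposited score is a number of unstated meaning. Per the submitters' processing notes, hg19, Bowtie2, TopHat2 and bedtools were used, with no step attached to each. Members and lists were chosen with earlier results of these data known.

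Python 3.11.15, numpy 2.4.6, pandas 2.3.3, scipy 1.17.1 and matplotlib 3.10.9 were used. Positions were written 1-based. No coordinates were carried from GRCh38 to hg19. Gaps were matched to exon lengths of 1 principal protein-coding transcript per gene in GENCODE release 29, in order, within 2 nt, with distances between matched exons within 20 nt of the annotated distance. The distance limit was added after results were seen, because matching without it gave an MYH10 exon a gap that contradicted its intron length. Order alone does not separate MYH1 from MYH4, as the exons of either matched 38 gaps of the MYH1 block. Genes were divided at the widest gap between their outer matched exons. Gaps within 2 nt of exon length plus 1 nt counted as matched, and those at exactly that length were counted separately and used for the comparison of 3′ with 5′ ends. Tested on simulated data (lists built from the annotated lengths of the 10 genes, 3 draws per gene, 5% of targets dropped), the matching recovered 1029 of 1029 exons. These lists used the same lengths as the matching, 1 gene at a time, with every gap 1 nt longer than its exon. Full recovery was thus nearly fixed in advance and does not measure how accurate the matching is in the deposited list.

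All 10 genes were named. Single targets were named as the highest, widest or narrowest of a gene or the nearest outside a window, and gap lengths as those in the most genes. Other single targets, and the gaps of 391, 100 and 145 nt, were named after their values were seen.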

Additional observations from a re-analysis of the deposited data

How the results depend on the processing

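Of 56 recomputed values, 14 moved past a limit chosen here. The limit was 10% of the value, 1.5 times a count, or an exact 95% binomial interval of a share, which is only a yardstick. The mean differences and correlations kept their sign, and the shares, medians and counts have no sign to reverse. The values that did not move are no tally of stability. Overlapping targets and merged gaps changed nothing in 5 values. Leaving out a muscle gene has little room to move a difference set by the nonmuscle mean. The mean score difference (muscle minus nonmuscle) was -15.6 without MYH9, -20.4 without MYH10 and -19.8 beside matched exons only. The muscle share was 6.83% above the list median in place of 0 and 13.1% without MYH13. The nonmuscle share was 98.3% beside matched exons only. With widths of 90 to 110 nt, 82.5% of muscle targets counted as full width. With gaps up to 300 nt, the median gap was 126.5 nt in muscle and 145 nt in nonmuscle genes. The Spearman correlation of score with order along MYH9 was 0.251 above 0 only, 0.359 at 3′ ends and 0.444 at 5′ ends, and along MYH10 0.453 at 3′ ends and 0.257 at 5′ ends. The causes were not tested. Matching by order alone, without the distance limit, gave 60 nonmuscle exons with a gap of exon length plus 1 nt, and the 3′ end was higher at 66.7% of them. The analyses beside matched exons, by intron end and by order alone were chosen after seeing the data. So were those by gene and at full width for the 3′ share.

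No paired analysis was possible because the list holds no value per library, and no replicate was left out for the same reason. The list is a single design. The sources used here state neither what its score means nor the depth behind it, so no precision is given. Exon identities rest on lengths, order and distances, not on hg19 annotation.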
